A study of Rattus norvegicus with 15 samples.

Results

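The late prereplicative phase of rat liver regeneration was examined in the 4 liver pools taken 12 and 24 h after partial hepatectomy (PHx), the surgical removal of most of the liver. Its members were chosen by labelled time, with earlier results of these data known. They are 7 of the 15 arrays of the series: 4 arrays after PHx and 3 of liver taken from the pools at the operation. Rats had been on chronic ethanol (EtOH) or, as pair-fed controls, on carbohydrate (CHO). Each array carried RNA pooled from 4 animals. The arrays after PHx were EtOH 12 h, CHO 12 h, EtOH 24 h and CHO 24 h, with 1 pool each. The arrays before PHx came from the EtOH 12 h, CHO 12 h and CHO 24 h pools, and per the animal identifiers they hold the same animals as the arrays after PHx. An array before PHx of the EtOH 24 h pool was not analysed here. Strain, sex, age and length of feeding are not stated in the labels used.

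MicroRNAs (miRNAs) are short RNAs that lower the translation and stability of messenger RNAs, which they recognize mainly through their seed, bases 2 to 8. After PHx the remaining hepatocytes leave quiescence, pass through a prereplicative phase and then synthesize DNA, and in the rat the first wave of DNA synthesis falls at about the end of the window measured here. Among the miRNAs, miR-21 is known to rise in regenerating liver, the miR-17-92 cluster to promote proliferation, miR-34a to be induced by p53 and to restrain the cell cycle, and miR-122 to be the dominant hepatocyte miRNA.

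The sequences of the miRNAs on which the results turn are shown with the seed in capitals, as RefSeq gives them on build GRCr8. The array names carry no arm, so the arm was taken as the usual main strand. The first 8 are miRNAs with different seeds that rose after PHx.
miR-21-5p: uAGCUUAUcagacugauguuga
miR-345-5p: uGCUGACCccuaguccagugc
miR-34a-5p: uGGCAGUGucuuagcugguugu
miR-223-3p: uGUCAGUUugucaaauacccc
miR-221-3p: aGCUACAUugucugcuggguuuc
miR-872-5p: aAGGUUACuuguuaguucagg
miR-7a-5p: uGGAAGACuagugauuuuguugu
miR-29b-3p: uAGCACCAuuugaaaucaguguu
The next 6 are shown because they share seeds, 4 of them AAAGUGC and 2 of them GUGCAAA.
miR-17-5p: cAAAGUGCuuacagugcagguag
miR-20a-5p: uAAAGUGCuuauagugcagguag
miR-93-5p: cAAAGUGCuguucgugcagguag
miR-106b-5p: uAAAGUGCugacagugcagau
miR-19a-3p: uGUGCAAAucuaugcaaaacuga
miR-19b-3p: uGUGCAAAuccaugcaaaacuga

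In the genome, miR-17, miR-19a, miR-20a and miR-19b lie in the miR-17-92 cluster, whose mature arms (with those of miR-18a and miR-92a) span chr15:98587861-98588622 on the plus strand of GRCr8. Some of these mature sequences also lie on the minus strand of chromosome X, that of miR-17 at chrX:137343615-137343637 (gene Mir106a) and that of miR-19b at chrX:137343070-137343092 (gene Mir19b2), as does that of miR-92a (gene Mir92a2), and the array signal does not tell these copies apart. MiR-106b, miR-93 and miR-25 lie within chr12:22156652-22157123 on the minus strand, inside the span of Mcm7, a gene for a DNA replication helicase subunit. MiR-21 lies at chr10:71902653-71902674 on the minus strand. MiR-34a lies at chr5:165815971-165815992 on the plus strand, inside the span of an annotated long noncoding RNA gene. The table gives gene spans only, so exon and intron are not told apart here.

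Of 350 miRNAs on the array, 134 were tested, and 107 of these were detected on all 7 arrays. Between 112 and 130 miRNAs were detected per array. The array of the EtOH 12 h pool before PHx had a dim region in its centre. There the darkest of 48 spot blocks lay -2.54 below its probes' medians on the log2 scale, against -0.21 at lowest on the other 14 arrays. The 13 blocks concerned were left out on every array. The spread between spots of a probe on that array then fell from a median coefficient of variation of 34.0% to 13.8%, against 6.73% to 8.53% on the others. CHO 12 h stood apart from the other arrays: across miRNAs, which are not independent, its closest match had a correlation of 0.978, against 0.995 or more elsewhere. Signals below are background-subtracted intensities scaled to a common 75th percentile, and changes are log2 differences after minus before PHx. Because bulk liver was measured, a change in the number of cells of a type and a change of RNA per cell cannot be told apart.

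The first comparison asked which miRNAs stood higher or lower at 12 and 24 h than before PHx, averaged over both times and both diets. In it 17 miRNAs rose and 1 fell at an adjusted p under 0.05. These calls made up 13.4% of all 134 tested in either direction, 12.7% higher and 0.746% lower. At an unadjusted p under 0.05 there were 31 (23.1%). The largest of these changes were those of miR-466b, miR-21, miR-34a, miR-7a, miR-345-5p and miR-223. The median change over all tested miRNAs was 0.049. All 4 arrays after PHx lay above all 3 before in 11 miRNAs (8.21% of those tested) and below them in 3 (2.24%), without regard to the test. Under quantile normalization, which moved the median of all tested miRNAs by -0.11, 4 rose and 7 fell.

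In the 3 pools with arrays on both sides of PHx, 31 of 134 miRNAs (23.1%) were higher after PHx in every pool and 13 (9.7%) lower in every pool. Among the 31 were miR-21, miR-345-5p, miR-17, miR-20a, miR-19a, miR-19b, miR-93, miR-106b, miR-25, miR-92a, miR-221 and miR-223. The 13 were miR-100, miR-125b-5p, miR-142-3p, miR-145, miR-150, miR-193*, miR-22*, miR-26a, miR-27b, miR-30a, miR-30e, miR-31 and miR-505, named after their values were seen. The middle 50% of changes lay between -0.048 and 0.32 in EtOH 12 h, between -0.20 and 0.11 in CHO 12 h and between -0.063 and 0.28 in CHO 24 h. The largest single change, 5.02, was that of miR-125a-3p in CHO 12 h, where the other pools gave -0.80 and 0.41.

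MiR-21, known for roles in proliferation and in suppressing Pdcd4, rose in each pool. MiR-21 measured 2009.7 (EtOH, 12 h pool), 1972 (CHO, 12 h pool) and 2273 (CHO, 24 h pool) before PHx, and 4004 (EtOH) and 3653 (CHO) at 12 h and 5049 (EtOH) and 4464 (CHO) at 24 h. All 4 values after PHx were above the 3 before, and the groups stood at 2085 ± 164 (SD, n = 3) before PHx and 4293 ± 604 (SD, n = 4) after it. The fitted change was 1.04 (SE 0.091, limma adjusted p = 0.000108), or 2.06-fold. Its paired changes were 0.99 (EtOH 12 h), 0.89 (CHO 12 h) and 0.97 (CHO 24 h). The EtOH 24 h array against the EtOH 12 h pool before PHx, which is not its own pool, gave 1.33.

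MiR-345-5p rose as well. MiR-345-5p measured 31.2 (EtOH, 12 h pool), 38.0 (CHO, 12 h pool) and 35.9 (CHO, 24 h pool) before PHx, and 50.7 (EtOH) and 52.8 (CHO) at 12 h and 54.6 (EtOH) and 58.0 (CHO) at 24 h. The groups did not overlap, and the change was 0.66 (SE 0.08, limma adjusted p = 0.000923). MiR-21 and miR-345-5p kept their call when any 1 of the 15 arrays was left out. MiR-221, linked to hepatocyte proliferation and to repression of the cell cycle inhibitor p27, measured 29.8 (EtOH, 12 h pool), 31.5 (CHO, 12 h pool) and 29.9 (CHO, 24 h pool) before PHx and 37.8 (EtOH) and 34.5 (CHO) at 12 h and 37.9 (EtOH) and 39.5 (CHO) at 24 h. Its groups did not overlap, and its change was 0.33 (SE 0.084, limma adjusted p = 0.037). MiR-222, which shares its seed with miR-221, was not tested because it was detected on too few arrays.

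**Figure D1:**
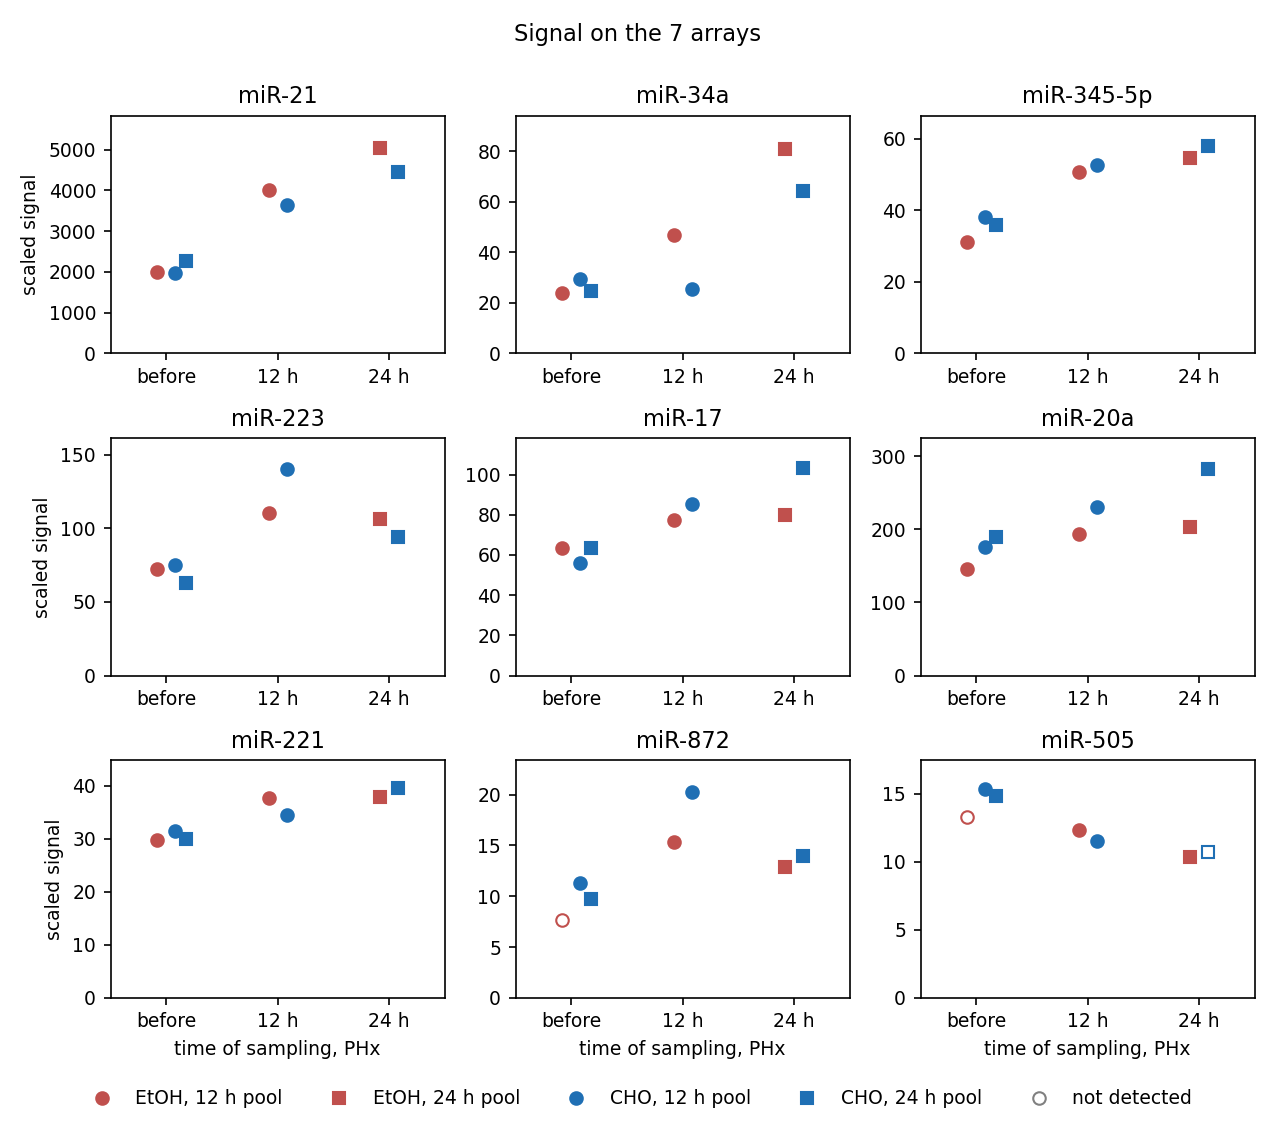
Scaled signal (intensity units, linear axis from 0) of 9 miRNAs on each of the 7 arrays, before PHx and at 12 and 24 h, by diet (colour) and pool (circles for 12 h, squares for 24 h), with open points where the probe was not detected. For miR-21 the 4 points after PHx all lie above the 3 before, and for miR-34a the CHO 12 h point lies among those before.

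MiR-34a, the p53-induced miRNA, did not move alike in the pools. MiR-34a measured 24.0 (EtOH, 12 h pool), 29.2 (CHO, 12 h pool) and 24.5 (CHO, 24 h pool) before PHx, and 46.8 (EtOH) and 25.3 (CHO) at 12 h and 80.9 (EtOH) and 64.3 (CHO) at 24 h. The CHO 12 h array lay among the arrays before PHx, while both arrays at 24 h and EtOH 12 h lay above them. The average change was 0.85 (SE 0.25, limma adjusted p = 0.0492), and the paired changes were 0.97 (EtOH 12 h), -0.21 (CHO 12 h) and 1.39 (CHO 24 h). At 24 h the change was 1.39 (SE 0.29, limma adjusted p = 0.0142), against 0.32 (SE 0.29, limma adjusted p = 0.742) at 12 h. Without the EtOH 12 h pool before PHx the average change was 0.36 (limma adjusted p = 0.375) and that at 24 h 0.89 (limma adjusted p = 0.0525). The average call held under 2 of the 15 fits that each left out 1 array.

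The list of the miR-17-92 cluster and its paralogues, which includes miR-106b, miR-93 and miR-25, was chosen with earlier results of these data known. It had 8 tested members. Of these 5 rose, none fell and 3 did not pass, where 12.7% of all 134 tested rose. Their median change was 0.40, against 0.049 over all 134, and all 8 estimates were above 0, here and under each of the 7 other scalings and backgrounds tried, though the calls among them ranged from 0 to 5. MiR-20a went from 145 (EtOH, 12 h pool), 176 (CHO, 12 h pool) and 189 (CHO, 24 h pool) to 194 (EtOH) and 230.4 (CHO) at 12 h and 204 (EtOH) and 283 (CHO) at 24 h. Its change was 0.50 (SE 0.09, limma adjusted p = 0.00978), and its groups did not overlap. MiR-17 measured 63.5 (EtOH, 12 h pool), 56.1 (CHO, 12 h pool) and 63.4 (CHO, 24 h pool) before PHx and 77.6 (EtOH) and 85.2 (CHO) at 12 h and 79.9 (EtOH) and 103 (CHO) at 24 h, a change of 0.52 (SE 0.10, limma adjusted p = 0.0106). MiR-17, miR-20a and miR-93, whose values did not overlap between groups, carry the shared seed AAAGUGC shown above, and miR-106b carries it too. MiR-106b did not pass in the average, at 0.31 (SE 0.093, limma adjusted p = 0.0596).

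The 2 miRNAs with the seed GUGCAAA showed overlapping groups. MiR-19b measured 116 (EtOH, 12 h pool), 176 (CHO, 12 h pool) and 244 (CHO, 24 h pool) before PHx and 167 (EtOH) and 196 (CHO) at 12 h and 231 (EtOH) and 277 (CHO) at 24 h. Its change was 0.44 (SE 0.12, limma adjusted p = 0.0415). MiR-19a, not detected on EtOH before PHx, measured between 10.9 and 30.0, with a change of 0.57 (SE 0.14, limma adjusted p = 0.0286). In both, the CHO 24 h pool before PHx was higher than CHO 12 h after PHx. MiR-93 rose by 0.36 (SE 0.10, limma adjusted p = 0.0415). MiR-25 and miR-92a, which share another seed, had estimates of 0.19 (SE 0.11, limma adjusted p = 0.387) and 0.12 (SE 0.084, limma adjusted p = 0.464). MiR-18a, miR-20b-5p and miR-363 of the list were not tested.

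**Figure D2:**
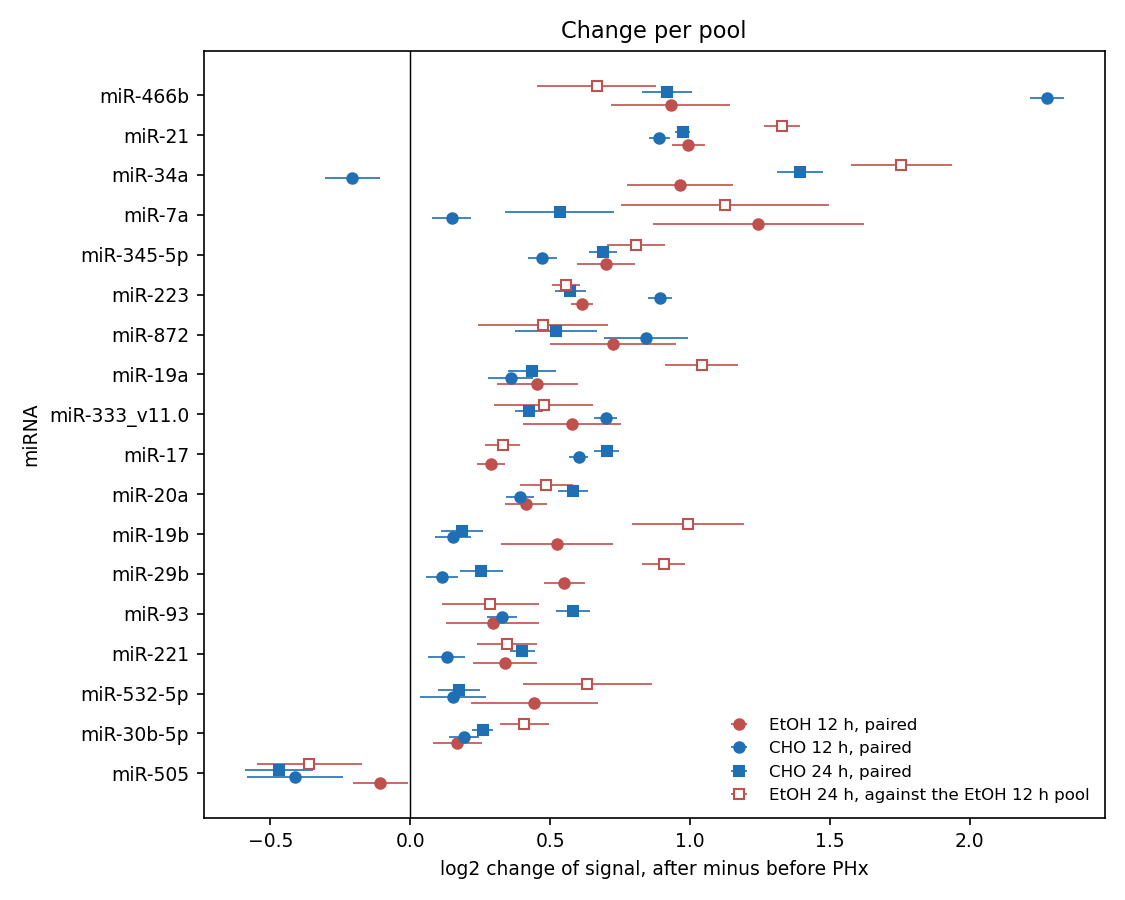
Log2 change of signal (horizontal axis) in each pool for the 18 miRNAs that passed in the average of 12 and 24 h, with bars for the standard error between spots of a probe, which is technical only. The 3 filled symbols of a miRNA compare a pool with its own array before PHx, and the open square compares EtOH 24 h with another pool. For miR-466b the CHO 12 h point lies apart at 2.28, and for miR-34a the CHO 12 h point lies below 0.

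Further risers have other known associations. MiR-223, characteristic of myeloid cells, measured 72.3 (EtOH, 12 h pool), 75.3 (CHO, 12 h pool) and 63.1 (CHO, 24 h pool) before PHx and 111 (EtOH) and 140.0 (CHO) at 12 h and 106 (EtOH) and 93.9 (CHO) at 24 h. The groups did not overlap, and the change was 0.66 (SE 0.12, limma adjusted p = 0.00978). MiR-872 was near the detection limit, between 7.65 and 20.2, and was not detected on EtOH before PHx. Its change was 0.65 (SE 0.12, limma adjusted p = 0.00978). MiR-7a rose by 0.68 (SE 0.17, limma adjusted p = 0.0286). Its lowest value, 8.14, was on that array too, where it was not detected, and without that array the change was 0.35 (limma adjusted p = 0.196). MiR-29b, of a family known to target collagen messages, rose by 0.42 (SE 0.10, limma adjusted p = 0.0286), while miR-29a and miR-29c did not pass.

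MiR-466b rose by 1.19 (SE 0.22, limma adjusted p = 0.00978), but it measured 86.9 on the CHO 12 h array and 17.0 to 27.0 on the other 3 arrays after PHx. Leaving CHO 12 h out gave a change of 0.83 (adjusted p = 0.0226). MiR-333_v11.0 measured 86.0 to 114 before PHx and 119.7 to 163 after it, a change of 0.53 (SE 0.12, limma adjusted p = 0.0286). The smallest rises that passed were those of miR-532-5p, at 0.33 (SE 0.091, limma adjusted p = 0.0458), and miR-30b-5p, at 0.26 (SE 0.073, limma adjusted p = 0.0488); both fall outside the naming rule and are given to complete the count.

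MiR-505 was the only miRNA that fell in the average. MiR-505 measured 13.3 (EtOH, 12 h pool), 15.3 (CHO, 12 h pool) and 14.9 (CHO, 24 h pool) before PHx, and 12.3 (EtOH) and 11.5 (CHO) at 12 h and 10.3 (EtOH) and 10.7 (CHO) at 24 h. The values after PHx all lay below those before, and the change was -0.37 (SE 0.10, limma adjusted p = 0.0433). The call held in 2 of the 15 fits that each left out 1 array and under 1 of 15 other settings, and with normexp on spot backgrounds the change was 0.098, above 0. It lay near the detection limit and was not detected on EtOH before PHx or on CHO 24 h. MiR-26a and miR-27b also had all 4 values after PHx below the 3 before without passing, at -0.16 (SE 0.066, limma adjusted p = 0.206) and -0.20 (SE 0.066, limma adjusted p = 0.0965). MiR-122 stood at 35181 ± 2669 (SD, n = 3) before PHx and 36100.4 ± 678 (SD, n = 4) after it, and its change of 0.028 (SE 0.082, limma adjusted p = 0.915) was smaller than the spread between arrays before PHx.

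The count depended on single arrays and on the pairing. Leaving out the EtOH 12 h pool before PHx left 6 of the 18, namely miR-17, miR-20a, miR-21, miR-221, miR-345-5p and miR-505. Leaving out CHO 12 h or EtOH 24 h left 7 of the 18 each. Without EtOH 12 h, or without CHO 24 h, 10 miRNAs passed, of which 6 were among the 18. Both times share a diet term, so the fits without EtOH 12 h and without CHO 24 h both rest on CHO 12 h and EtOH 24 h. Those without CHO 12 h and without EtOH 24 h both rest on EtOH 12 h and CHO 24 h. The fits of each pair give the same estimates. Leaving out the CHO 12 h pool before PHx left 10 of the 18, and leaving out any 1 of the 4 arrays at 1 and 6 h left 8. Leaving out an array at 1 or 6 h did not change the late estimates, only their error. Over the 15 fits that each left out 1 array, miR-221 kept its call in 3, miR-19b, miR-93, miR-34a and miR-505 in 2 each, and miR-532-5p and miR-30b-5p in 1 each. With the pools as a fixed replicate block, which has 1 residual degree of freedom, none passed. The same block without diet terms, added after seeing the data, left 9, all among the 18. With the pools as a random replicate block 12 of the 18 passed, without miR-34a, miR-19b, miR-93, miR-505, miR-30b-5p and miR-532-5p, and the miR-17-92 list then had 3 calls. Within the slide, from the 7 arrays alone, 6 passed. With normexp on spot backgrounds none passed, and with the percentile over all probes 5 did. With all spot positions kept, 17 rose and 15 of the 18 were among them.

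The changes at each time were asked next. At 12 h 5 miRNAs rose and none fell (3.73% of those tested, with 21, or 15.7%, at an unadjusted p under 0.05). They were miR-466b, miR-21, miR-872, miR-223 and miR-345-5p. MiR-21 changed by 0.88 (SE 0.11, limma adjusted p = 0.00196), miR-223 by 0.81 (SE 0.14, limma adjusted p = 0.00606) and miR-872 by 0.84 (SE 0.15, limma adjusted p = 0.00606). MiR-345-5p changed by 0.60 (SE 0.10, limma adjusted p = 0.0055), and miR-466b by 1.68 (SE 0.27, limma adjusted p = 0.0055). MiR-333_v11.0, the next by p, did not pass at 0.58 (SE 0.15, limma adjusted p = 0.0748). Without the CHO 12 h array none passed, and miR-466b stood at 0.96 (limma adjusted p = 0.108), while 8 passed without EtOH 12 h and 9 without EtOH 24 h or CHO 24 h. With the pools as a replicate block 2 rose, and with all spot positions kept 8 rose. In the paired CHO 12 h pool the median change over the 134 miRNAs was -0.063, and in the EtOH 12 h pool it was 0.13.

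The 24 h arrays gave 18 rises and 1 fall (14.2% of those tested, with 34, or 25.4%, at an unadjusted p under 0.05). MiR-34a, miR-21 and miR-19a led, with changes of 1.39, 1.20 (SE 0.11, limma adjusted p = 0.000147) and 0.90 (SE 0.16, limma adjusted p = 0.0108). MiR-19b changed by 0.69 (SE 0.14, limma adjusted p = 0.0142) and miR-17 by 0.60 (SE 0.12, limma adjusted p = 0.0142). The EtOH 24 h array had no array of its own pool before PHx here. In the paired CHO 24 h pool miR-19a changed by 0.44, miR-19b by 0.18 and miR-17 by 0.70. EtOH 24 h against the EtOH 12 h pool before PHx, unpaired, gave 1.04, 0.99 and 0.33. MiR-345-5p changed by 0.72 (SE 0.10, limma adjusted p = 0.00187), miR-7a by 0.73 (SE 0.20, limma adjusted p = 0.0396) and miR-350 by 0.63 (SE 0.18, limma adjusted p = 0.0482). MiR-505 fell, at -0.46 (SE 0.12, limma adjusted p = 0.0384). Of the miR-17-92 list, 6 of 8 tested members passed at 24 h and none at 12 h, with medians of 0.56 and 0.23. Since both times share their arrays before PHx, these values stand side by side only. All 8 estimates were above 0 at each time, but at 12 h this depended on the scaling. Then 5 were above 0 with the percentile over all probes, 4 with the authors' deposited values and 3 with normexp on spot backgrounds. With quantile normalization and with normexp on 1 background value per array 6 were. At 24 h 7 were with quantile normalization and with the authors' values. Without EtOH before PHx replicate 3, which is the array of the EtOH 12 h pool, 7 rose and 1 fell, and miR-7a stood at 0.40 (limma adjusted p = 0.143). MiR-34a, miR-19b and miR-350 also lost their calls at 24 h in that fit. The spots of miR-19b on that array had a coefficient of variation of 32.7%. Without CHO 24 h 5 rose and none fell, of which 2 were among the 19, and without EtOH 24 h 3 rose and 3 fell. With the authors' deposited values 5 rose and 6 fell. Without CHO before PHx replicate 3, the array of the CHO 12 h pool, 9 passed, and 11 passed without CHO before PHx replicate 1 or any 1 of the arrays at 1 and 6 h. No miRNA passed with the pools as a replicate block, with or without diet terms.

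The times were then compared with each other. No miRNA passed between 24 and 12 h, with 27 of 134 (20.1%) at an unadjusted p under 0.05 by limma. The 6 with the lowest p were miR-19a, miR-106b, miR-34a, miR-193 and miR-19b, all higher at 24 h, and miR-466b, lower. MiR-19a differed by 0.67 (SE 0.18, limma adjusted p = 0.163) and miR-106b by 0.43 (SE 0.12, limma adjusted p = 0.163). MiR-34a differed by 1.07 (SE 0.32, limma adjusted p = 0.163), miR-193 by 0.52 (SE 0.16, limma adjusted p = 0.163), miR-19b by 0.49 (SE 0.15, limma adjusted p = 0.163) and miR-466b by -0.98 (SE 0.29, limma adjusted p = 0.163). With the pools as a replicate block 2 were lower at 24 h. Without EtOH 12 h or without EtOH 24 h the difference rested on CHO 24 h against CHO 12 h alone. Both fits gave the same estimates, with a median of 0.065 over all tested. Without CHO before PHx replicate 4, 1 passed. With percentiles taken over all probes, 7 passed as higher at 24 h, and the median over all tested then moved by 0.24.

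**Figure D3:**
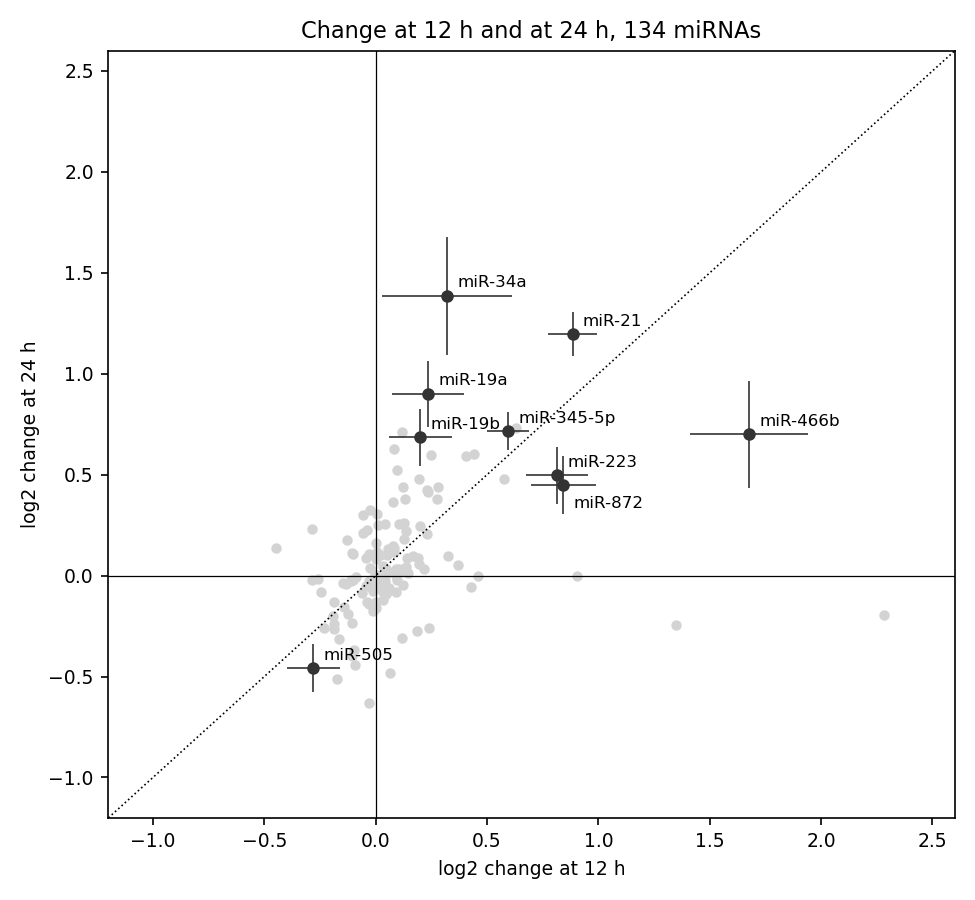
Fitted log2 change at 12 h (horizontal axis) against that at 24 h (vertical axis) for 134 miRNAs, with standard errors for the labelled ones and a dotted line of equal change. MiR-34a, miR-19a and miR-19b lie above the line and miR-466b below it, and no difference between the times passed the test.

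The diets were compared in the late pools. No miRNA differed between EtOH and CHO at 12 and 24 h by limma (0 of 134, with 17, or 12.7%, at an unadjusted p under 0.05). The lowest p belonged to miR-466b, lower in EtOH by -1.37 (SE 0.29, limma adjusted p = 0.12), and to miR-92a, at -0.43 (SE 0.11, limma adjusted p = 0.191). MiR-20a was at -0.36 (SE 0.12, limma adjusted p = 0.263), miR-324-3p at -0.43 (SE 0.14, limma adjusted p = 0.263) and miR-152 at 0.37 (SE 0.11, limma adjusted p = 0.263). MiR-125a-3p, at -2.77 (SE 0.87, limma adjusted p = 0.263), measured 485 on CHO 12 h and 10.9 to 20.5 on the other 6 arrays. Without EtOH 24 h or without CHO 24 h the diet difference rested on EtOH 12 h against CHO 12 h alone. Both fits gave the same estimates, with a median of 0.043 over all tested. They rest on CHO 12 h, the array that stood apart from the others.

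The change after PHx did not differ between diets by limma either (0 of 134, with 18, or 13.4%, at an unadjusted p under 0.05). For miR-21 the change was 1.13 (SE 0.12) in EtOH and 0.95 (SE 0.11) in CHO, and the difference of 0.19 had a 95% interval -0.15 to 0.52. For miR-34a the changes were 0.87 (SE 0.33) and 0.84 (SE 0.30), with a difference of 0.026 (95% interval -0.88 to 0.93). Intervals of this width do not show that the diets respond alike. The lowest p belonged to the epithelial miR-200a and miR-200b, at 0.66 (SE 0.14, limma adjusted p = 0.0915) and 0.79 (SE 0.18, limma adjusted p = 0.0915). MiR-200b measured 21.1 on EtOH before PHx, its lowest value, and 35.3 and 32.4 after it. In CHO it measured 32.5 and 34.0 before and 26.7 and 31.1 after. The EtOH array before PHx is the one with the dim region, and without it the difference was 0.73. MiR-320, miR-494 and miR-743a had negative estimates and miR-322 a positive one, with adjusted p of 0.153 to 0.231. Without EtOH 24 h or without CHO 24 h, the late diet difference again rested on the 12 h arrays alone. Both fits gave the same estimates, with a median of 0.12 over all tested. Without CHO before PHx replicate 1, 1 passed, and with the pools as a replicate block 1 passed as lower.

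**Figure D4:**
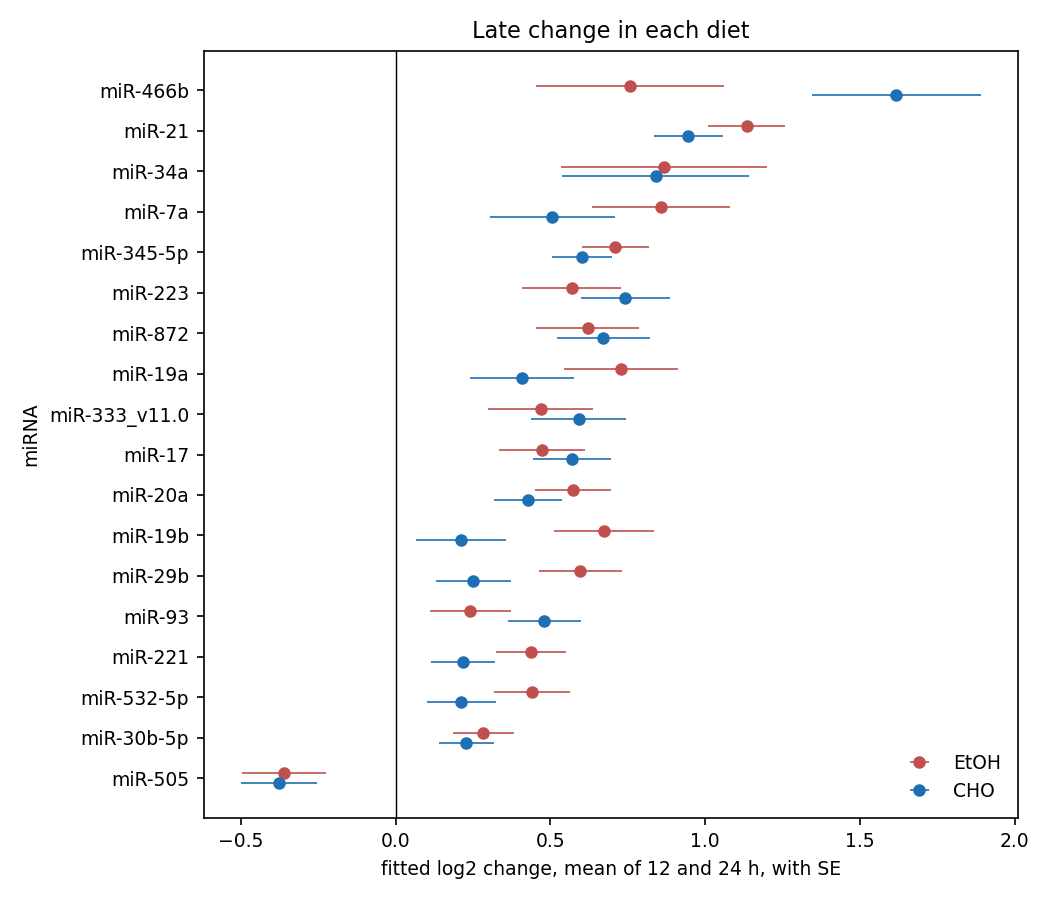
Fitted log2 change, as the mean of 12 and 24 h with its standard error, in EtOH and CHO for the 18 miRNAs that passed in the average. No difference between the diets passed the test; the widest gap is that of miR-466b, at 0.76 in EtOH and 1.62 in CHO.

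Markers of cell types were read beside these changes. Over all 134 tested miRNAs, 13.4% passed in either direction, the share beside which the counts of these small lists stand. Of the leukocyte list, 1 of 4 tested members passed, miR-223, while miR-142-3p, miR-150 and miR-146a did not, and the list's median change was -0.04. MiR-150, of lymphocytes, and miR-142-3p, of blood cells in general, had changes of -0.23 and -0.15. Neither of the 2 tested erythroid miRNAs passed. MiR-451 measured 889.6 (EtOH), 583 and 1197 (CHO) before PHx, and 349 on CHO 24 h against 796 to 854 on the other arrays after it. None of the 3 hepatocyte, 2 endothelial, 8 stellate and mesenchymal, or 3 epithelial miRNAs passed, with medians of 0.024, 0.11, -0.012 and 0.084. The part of any cell type in the rise of miR-223 was not tested.

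Other families were counted too. Of 8 let-7 members tested none passed, with a median of 0.033. Of 3 miR-29 members 1 rose and of 5 miR-30 members 1 rose, where 12.7% of all 134 tested rose, with medians of 0.11 and 0.062. None of 5 members of the miR-15 and miR-16 family passed (median 0.10), nor did any of 5 of the miR-23, miR-24 and miR-27 clusters (median -0.086) or either of miR-103 and miR-107 (median -0.0067). Of 6 tested miRNAs named in other regeneration studies, miR-21, miR-221 and miR-34a rose, while miR-23b, miR-26a and miR-378 did not pass. MiR-378 changed by 0.037 (SE 0.12, limma adjusted p = 0.918).

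The late change was compared with that at 1 and 6 h, on another slide with its own arrays before PHx. In the comparison 2 miRNAs passed, both with a larger rise late (1.49%, with 18, or 13.4%, at an unadjusted p under 0.05). MiR-21 changed by 0.34 (SE 0.083) early, so the late change exceeded it by 0.70 (SE 0.12, limma adjusted p = 0.0357). MiR-345-5p changed by 0.12 (SE 0.073) early, and the difference was 0.53 (SE 0.11, limma adjusted p = 0.0478). The next 4 by p did not pass. They were miR-20a (0.43 (SE 0.12, limma adjusted p = 0.211)), miR-505 (-0.47 (SE 0.14, limma adjusted p = 0.211)), miR-196b (-0.83 (SE 0.25, limma adjusted p = 0.211)) and miR-17 (0.45 (SE 0.14, limma adjusted p = 0.211)). MiR-221 and miR-872 had early estimates of 0.37 and 0.51 beside late ones of 0.33 and 0.65. With 1 array left out, 2 or 3 passed without EtOH before PHx replicate 1 or 2, EtOH 12 h, CHO before PHx replicate 4 or CHO 24 h, and none passed without any 1 of the other 10. Over the 15 fits that each left out 1 array, miR-21 kept this call in 5 and miR-345-5p in 2. Under 15 other settings miR-21 kept it in 4 and miR-345-5p in 2. None passed with the pools as a replicate block. Without the slide term 7 were higher and 4 lower.

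**Figure D5:**
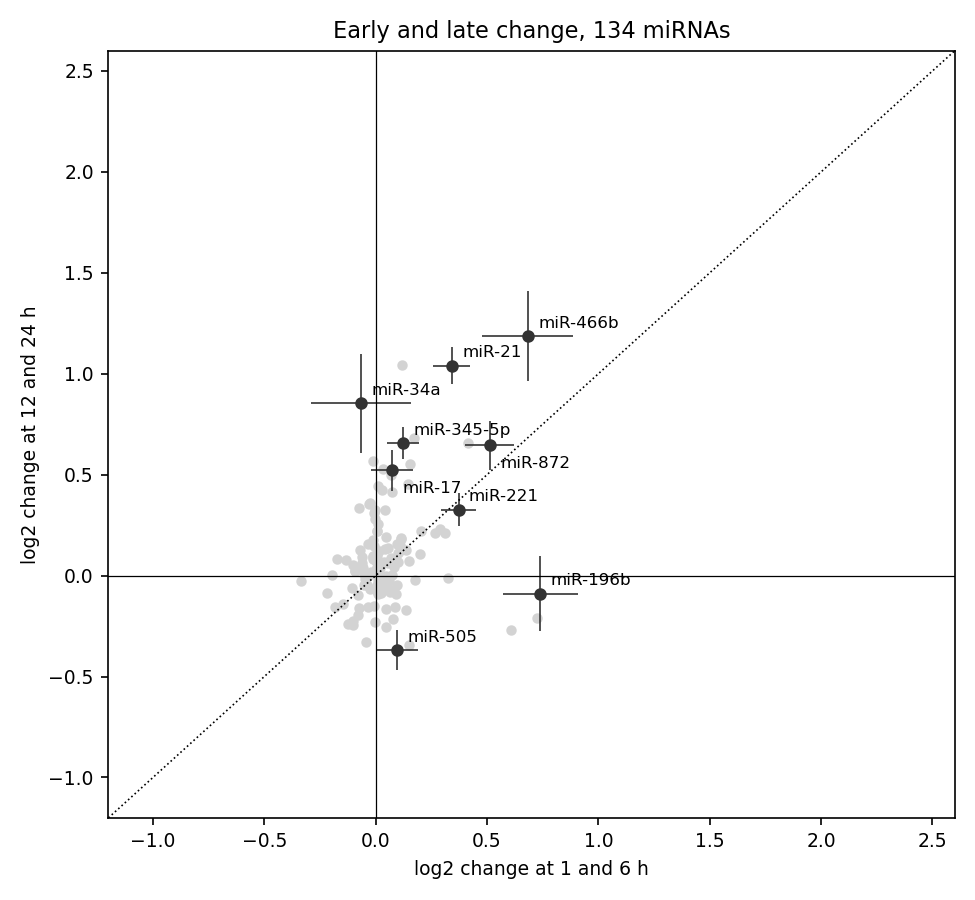
Fitted log2 change at 1 and 6 h (horizontal axis) against that at 12 and 24 h (vertical axis) for 134 miRNAs, with standard errors for the labelled ones and a dotted line of equal change. MiR-21 and miR-345-5p, which passed the test of the difference with all 15 arrays, lie above the line, while miR-196b lies below it and did not pass.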

How the data were processed

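MiRNA levels were read from 15 single-colour Cy3 arrays. Deposited scanner files give each spot's intensity after subtraction of its local background by Agilent Feature Extraction, in version 10.5.1.1 per the file headers. The submitters' processing notes name version 10.7.3.1. The authors' deposited table of log2 values was an alternative, and how it was normalized, scaled and centred is not stated. Spots flagged as outliers or lying in the 13 of 48 blocks that were dim on 1 array, 27.1% of spots, were left out on every array; this was decided after seeing the data, and with all positions kept the fit is an alternative. Probe means were divided by each array's 75th percentile over 191 probes detected on all arrays (at least 0.5 of spots well above background), floored at 9.29 and logged. The brightest probe stood for its miRNA, and in all 16 called miRNAs with several detected probes the probes had the same sign. The size of the change, as means after minus before PHx, could differ between probes. It was 0.28 to 0.61 for miR-872 and 0.35 to 0.58 for miR-7a, against 1.03 to 1.12 for miR-21. A miRNA was tested if detected on 3 or more of 15 arrays. Before scaling the 75th percentile was 278.7 to 474.9 on the 7 arrays.

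All 15 arrays entered 1 limma fit (lmFit, eBayes; limma 3.58.1, R 4.3.3), with terms for slide, for diet before PHx, at 1 and 6 h and at 12 and 24 h, and for each time, leaving 6 residual degrees of freedom. These 7 arrays lie on 1 slide and the 8 early ones on another. Benjamini-Hochberg adjustment ran over 134 miRNAs, with calls made at an adjusted p under 0.05. The members and lists were chosen with earlier results of these data known. Up to 15 called miRNAs per direction were named for the average and up to 8 for other contrasts, those with the lowest p where fewer than 6 passed (up to 6), also miR-378, miR-222, miR-221, miR-122, miR-34a and miR-21, and list members as examples. Alternatives were other scalings, backgrounds, filters, pool blocks and left-out arrays. The planned normexp setting used the median spot signal, since the files hold no mean signal. Pools are separate animals but 1 animal is shared between pools at 1 and 6 h in each diet.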

Additional observations from a re-analysis of the deposited data

Results flagged for a closer look

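Among the arrays of CHO before PHx, miR-200b on replicate 2 lay apart from the other 3, at 42.4 against 32.5 to 34.0; 30 such checks were made, and chance flags about 1 in 20 of them. The late rise exceeded the early one for miR-21 by 0.70 and for miR-345-5p by 0.53 on the log2 scale. Of the 216 miRNAs that were not tested, 10 were detected on any of the 7 arrays. Among them 8 were detected on 1 or more of the 4 arrays after PHx and on none of the 3 before. Most of these 8 were highest on CHO 12 h, the array that stood apart from the others. On CHO 12 h miR-125b-3p measured 209.4 against 2.51 to 6.33 before PHx, miR-327 16.8 against 1.18 to 1.81, miR-134 14.7 against 1.08 to 4.87 and miR-539 11.1 against at most 1.62. On the same array miR-874 measured 17.2 against 5.34 to 10.6 before PHx, miR-296* 13.7 against 6.20 to 12.2 and miR-125b* 9.75 against at most 1.21. On EtOH 24 h miR-142-5p measured 7.49 against at most 6.93 before PHx.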

How the results depend on the processing

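Counts of miRNAs passing were 18 for the average late change, 5 at 12 h, 19 at 24 h, 2 for late against early and 0 in the other 3 comparisons. With 75th percentile over all probes the counts were 5 for the average late change, 1 for 12 h, 12 for 24 h, 7 for 24 against 12 h, 2 for diet by PHx, 0 for late against early. With quantile normalization the counts were 11 for the average late change, 7 for 24 h, 0 for late against early. With no scaling the counts were 8 for the average late change, 8 for 12 h, 2 for 24 h, 2 for 24 against 12 h, 2 for diet late, 4 for diet by PHx, 0 for late against early. With normexp with spot backgrounds the counts were 0 for the average late change, 0 for 12 h, 0 for 24 h, 2 for diet late, 2 for diet by PHx, 0 for late against early. With normexp with 1 background value per array the counts were 1 for the average late change, 4 for 24 h, 3 for diet late, 4 for diet by PHx, 1 for late against early. With the authors' deposited log2 values the counts were 6 for the average late change, 11 for 24 h, 3 for diet by PHx, 1 for late against early. With no filter on dim probes the counts were 2 for the average late change, 2 for 12 h, 2 for 24 h, 0 for late against early. With only the 7 arrays of the slide the counts were 6 for the average late change, 4 for 24 h. With pool as replicate block the counts were 0 for the average late change, 2 for 12 h, 0 for 24 h, 2 for 24 against 12 h, 1 for diet by PHx, 0 for late against early. With pool as replicate block without diet terms the counts were 9 for the average late change, 0 for 24 h, 0 for late against early. With all spot positions the counts were 8 for 12 h, 1 for late against early. With total signal per miRNA the counts were 9 for 12 h, 2 for 24 against 12 h, 2 for diet late. With only miRNAs detected on all 7 arrays the counts were 3 for 12 h. With median over all spot positions the counts were 1 for late against early. With no slide term the counts were 11 for late against early. With pool as random replicate block the counts were 0 for late against early. Leaving out 1 array at a time gave counts of 6 to 17 for the average late change, 0 to 9 for 12 h, 5 to 20 for 24 h, 0 to 5 for 24 against 12 h, 0 to 5 for diet late, 0 to 8 for diet by PHx, 0 to 3 for late against early. For the average late change the count fell to 12 or fewer without any 1 of 11 arrays, lowest at 6 without EtOH before PHx replicate 3; leaving out an array of the 1 and 6 h pools also lowers the degrees of freedom. Where a lone pool remained at a time it was assumed to vary like the others. When an array at 12 or 24 h was left out, the late diet difference rested on a single pair of arrays. So did the comparison of 24 with 12 h. With normexp on spot backgrounds, miR-505 reversed to 0.098 in the average and 0.67 at 24 h, miR-872 to -0.30 and miR-345-5p to -0.093 at 12 h. That setting moved the median of all tested miRNAs by 0.57 at 24 h, and 2 of its array fits had a wide background spread. With normexp on 1 background value per array, miR-532-5p reversed to below 0 in the average. Its call there held under 1 of 15 other settings. MiR-21 passed in the average under 14 of 16 other settings, miR-345-5p under 13, miR-20a, miR-223 and miR-872 under 9 each and miR-17 under 8. The pool block was used because arrays of a pool hold the same animals; the correlation within pools was -0.12. Pools, not animals, are the replicates, so 15 arrays limit the precision, and signals near the floor of 9.29 have no order.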

Other observations

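The CHO 12 h array also held the highest value of several other tested miRNAs. MiR-188 measured 166 on CHO 12 h and 15.9 to 38.2 on the other 6 arrays. MiR-672 was detected on CHO 12 h, at 32.6, and on no other of the 7 arrays, which gave 2.68 to 9.28. MiR-30c-1* was detected on CHO 12 h at 17.3 and on EtOH 12 h at 9.44, and on none of the 3 arrays before PHx. MiR-494 measured 1019 on CHO 12 h and 471 to 684 on the other 6. These miRNAs, apart from miR-494, were named after their values were seen.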
